A study of Homo sapiens with 6 samples.

Results

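The cyclin D–CDK4/6–INK4 module of the cell cycle was described at the level of messenger RNA in the cell line NCM-460, which was established from the epithelium of a normal human colon. It comprised 8 genes chosen by name, namely the D-type cyclins CCND1, CCND2 and CCND3, the kinases CDK4 and CDK6, and the INK4 inhibitors CDKN2A, CDKN2B and CDKN2C, out of 236 genes on a cancer panel. Transcripts were counted by NanoString nCounter, a method that counts barcoded probes hybridised to unlabelled total RNA and uses no amplification. There were 3 samples transfected with pri-miR-135b, from which cells process the microRNA miR-135b, and 3 transfected with a control siRNA, called miR-135b and control samples here. By these labels the groups differed in the kind of RNA given as well as in its sequence, so a difference between them cannot be assigned to the microRNA alone. The series' design text calls both reagents oligos, the control one scrambled. Where the replicates came from is not stated, so each p-value rests on a spread between samples that could be technical only.

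D-type cyclins are the regulatory subunits that bind and activate CDK4 and CDK6 when mitogens are present. The active kinases phosphorylate the retinoblastoma protein RB, which releases E2F transcription factors and lets a cell pass from G1 into S phase. INK4 proteins bind CDK4 and CDK6 and keep cyclin D from activating them. CDKN2A encodes p16INK4a and, from another first exon and reading frame, p14ARF. CDKN2B encodes p15INK4b, a known TGF-beta response gene, and CDKN2C encodes p18INK4c. In colon epithelium, CCND1 is known as a gene that responds to beta-catenin.

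The mature products of pri-miR-135b, the transcript named in the labels, are shown to identify the microRNA. They were taken from RefSeq (GRCh38.p14, minus strand), at chr1:205448361-205448383 for the 5p arm and chr1:205448323-205448344 for the 3p arm, and the capitals mark the seed, bases 2 to 8.
hsa-miR-135b-5p: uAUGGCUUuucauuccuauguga
hsa-miR-135b-3p: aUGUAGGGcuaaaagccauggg
The panel does not count microRNAs, so the level of miR-135b in these samples was not measured. Target sites in the 8 transcripts were not searched, since no transcript sequences were used.

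Depth, as the sum of all 236 gene counts, was between 250792 and 392207. Background, set per sample as the mean of the 8 negative probes plus 2 SD, lay between 14.7 and 26.1 counts, and 174 genes exceeded it in at least 3 of the 6 samples and were tested. Of those, 75 had an adjusted p under 0.05 by edgeR's quasi-likelihood test, 31 higher and 44 lower in miR-135b samples. Normalised counts are raw counts divided by each sample's library size times its TMM factor (edgeR's trimmed mean) and brought back to the average depth. Scaled instead by 6 reference genes (GAPDH, TUBB, PGK1, HPRT1, GUSB, CLTC), the split was 37 higher and 30 lower. By edgeR with TMM, 5 of these 6 genes had a negative log2 fold change, and PGK1 was itself called lower (-0.12, adjusted p = 0.000973). The split was 33 and 30 by the DESeq2 Wald test, and 14 and 13 when scaled by the positive spike probes. It was 31 and 22 by limma on background-subtracted counts that were also scaled by the reference genes. With DESeq2 size factors it was 36 and 35. Lower calls remained the more frequent with total count scaling (34 higher, 40 lower) and without the low-count filter (30 and 40). The same held by limma on the authors' normalized values (28 and 37) and in each of the 6 fits that left out a sample. Of 6 measured markers of colon epithelium, 5 were above background in every sample, among them CDH1, which encodes E-cadherin. The summed count of the 6 was 9103 to 9247 in miR-135b samples and 7931 to 8113 in control samples. That sum was mostly MET, and the markers went both ways: MET and CDH1 were higher by edgeR (log2 fold changes 0.32 and 0.28), ERBB3 and ERBB2 lower (-0.51 and -0.19), and MST1R did not pass (0.026). The part of these markers in the results was not tested. MUC1, the remaining measured marker, was above background in only 1 sample and was not tested. The colon-defining genes VIL1, CDX2 and KRT20 were listed as markers but are not on the panel. Of 11 blood cell, 4 fibroblast and 3 endothelial markers, 2, 2 and 1 were above background in any sample.

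All 8 genes of the module passed the filter on low counts, CCND2 barely. CCND1 was higher and CDKN2C lower in miR-135b samples, and the other 6 genes did not pass the test. The 2 calls among 8 genes, 1 in each direction, stand beside 43.1% of all tested genes called, 17.8% higher and 25.3% lower. With only 8 genes, the difference in share is not read as a property of the module. Its log2 fold changes (miR-135b over control throughout) ran between -0.40 and 0.29 with a median of -0.085, against a median of -0.037 over the 174 tested genes. Values of miR-135b and control samples were fully apart for 3 of the 8 genes, against 51.7% of tested genes. These were CCND1, with miR-135b samples above (21.8% of tested genes), and CDKN2A and CDKN2C, with miR-135b samples below (29.9%). The panels of counts by sample show these 3 genes with separated groups.

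**Figure D1:**
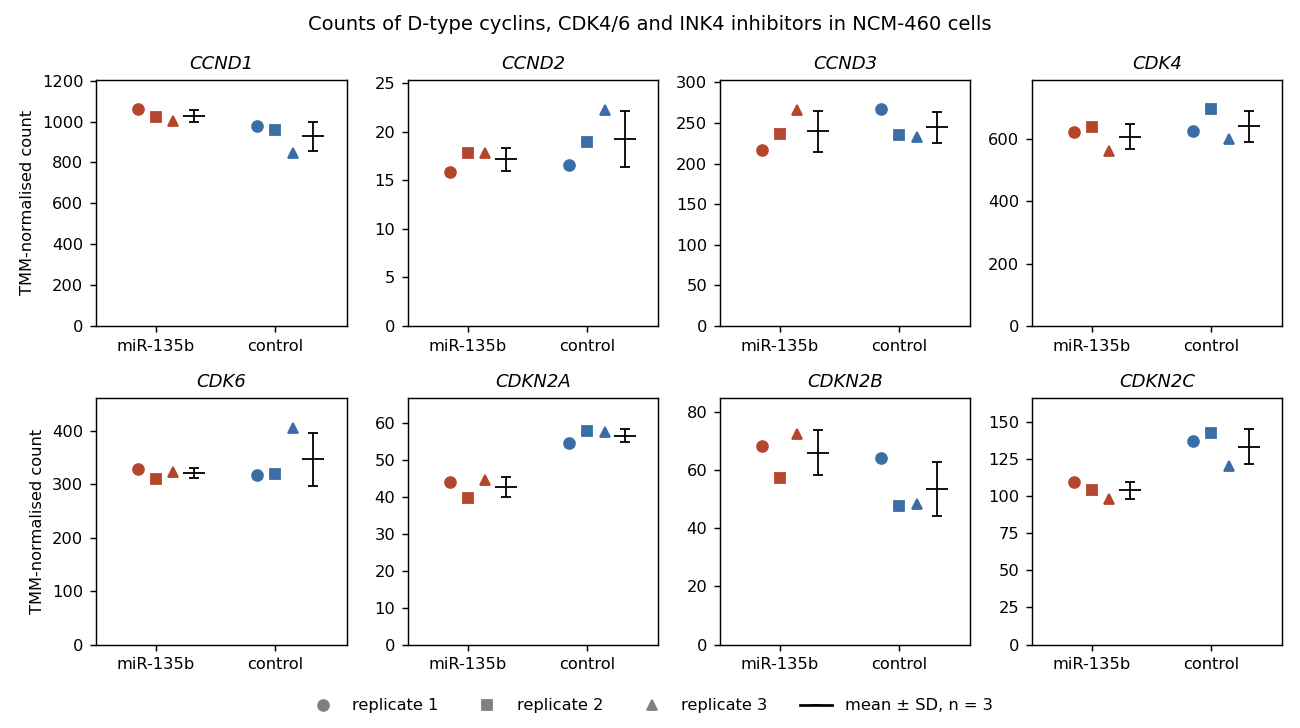
TMM-normalised counts of the 8 genes in each sample, with miR-135b samples in red left of control samples in blue, marker shape for the replicate, and the black bar for mean ± SD (n = 3). Each panel has its own count axis starting at 0; the groups are apart for CCND1, CDKN2A and CDKN2C, and overlap for the other 5 genes.

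CCND1, the D-type cyclin best known as an oncogene, rose slightly. Its normalised count was 1060.2, 1023 and 1003 in miR-135b replicates 1 to 3, against 979, 961 and 847 in control replicates 1 to 3. All 3 miR-135b samples lay above all 3 control samples, but the gap between the nearest ones was small and control replicate 3 was the lowest. The means were 1029 ± 29.0 in miR-135b and 929 ± 71.7 in control samples (SD, n = 3), and the log2 fold change was 0.14 with an SE of 0.06, or 1.10-fold (edgeR adjusted p = 0.0439). The call was lost in some fits that left out a sample. By edgeR the adjusted p was 0.155 without control replicate 3, 0.172 without miR-135b replicate 1 and 0.0834 without miR-135b replicate 2. The log2 fold change was 0.098, 0.12 and 0.15 in these fits. In the last of them it was not smaller than with all samples, and the SE was larger (0.064). The call was also lost with spike scaling (edgeR adjusted p = 0.489) and without the low-count filter (0.0711). By limma it was lost on background-subtracted counts scaled by reference genes (adjusted p = 0.0771) and on the authors' normalized values (0.158).

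CCND2, a D-type cyclin known from blood and gonadal cells, was at background in both groups. Its raw count was 19, 18 and 14 in miR-135b samples, against 17, 23 and 17 in control samples. Only miR-135b replicates 1 and 2 and control replicate 1 exceeded their own background, and reached at most 1.19 times that level. The log2 fold change of -0.16 had a 95% interval of -0.70 to 0.39 (edgeR adjusted p = 0.664), and no difference was detectable at this depth. CCND3, the third D-type cyclin, had 216, 237 and 266 normalised counts in miR-135b samples and 267, 235 and 233 in control samples. The groups covered nearly the same range, with means of 239.8 ± 25.2 in miR-135b and 245 ± 19.1 in control samples (SD, n = 3). Its log2 fold change was -0.05 with a 95% interval of -0.25 to 0.15 (edgeR adjusted p = 0.698), and its sign turned in 3 of the 17 alternative fits.

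Neither kinase passed the test. CDK4, the kinase partner of D-type cyclins in most tissues, had 623, 637 and 562 normalised counts in miR-135b samples and 626, 695 and 599.6 in control samples. The groups overlapped, and the lowest sample of each was replicate 3. The means were 607 ± 39.8 in miR-135b and 640.3 ± 49.2 in control samples (SD, n = 3), and the 95% interval of the log2 fold change, -0.22 to 0.06, spanned 1.16-fold lower to 1.04-fold higher (edgeR adjusted p = 0.351). CDK6, the related kinase with the same partners, had 329.5, 311 and 324 normalised counts in miR-135b samples and 318, 319 and 405 in control samples. Control replicate 3 stood above the other 5 samples, which lay within a narrow range. The log2 fold change was -0.09 (95% interval -0.27 to 0.09, edgeR adjusted p = 0.417) and became 0.021 without control replicate 3.

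Of the 3 INK4 genes only CDKN2C passed the test. CDKN2C (p18INK4c) was lower, with 109.8, 104 and 98.1 normalised counts in miR-135b samples against 137, 143 and 120.2 in control samples. Every miR-135b sample lay below every control sample. The means were 104 ± 5.85 in miR-135b and 133 ± 11.8 in control samples (SD, n = 3), and the log2 fold change was -0.36 with an SE of 0.12, or 1.29-fold lower (edgeR adjusted p = 0.0182). Its rank by p-value among the 174 tested genes was 61, and that of CCND1 was 73. The direction held in all 17 alternative fits. The edgeR adjusted p missed the threshold in 4 of the 6 fits that left out a sample, at 0.0568 without miR-135b replicate 2, 0.0524 without miR-135b replicate 3, 0.0543 without control replicate 1 and 0.0759 without control replicate 2. It was 0.216 with spike scaling, and the DESeq2 Wald test gave 0.0887.

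CDKN2A had the largest log2 fold change of the 8 genes in size but did not pass the test. Its normalised count was 44.1, 39.6 and 44.6 in miR-135b samples, against 54.5, 57.8 and 57.5 in control samples. The groups were well separated, and the samples within each lay close together. The means were 42.8 ± 2.76 in miR-135b and 56.6 ± 1.79 in control samples (SD, n = 3), with a log2 fold change of -0.40 (SE 0.17, 95% interval -0.76 to -0.05). The unadjusted p was 0.0265 and the edgeR adjusted p 0.0583. By limma, whose alternatives weigh the replicate spread without modelling the counting error, the gene passed on the authors' normalized values (adjusted p = 0.00354) and on background-subtracted counts scaled by reference genes (0.00563). The replicates varied by 6.44% in miR-135b and 3.17% in control samples, less than the 15.3% and 13.3% that counting error alone gives at these counts. Over all 17 alternatives the adjusted p ranged from 0.00354 to 0.281. The file lists the probe under the p16INK4a transcript, and since p14ARF shares later exons with it and the probe's position is not given, it is not known here which of the 2 products was counted.

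CDKN2B, the neighbour of CDKN2A on chromosome 9 with no protein-coding gene between them in RefSeq, had a fold change of the opposite sign. Its normalised count was 68.2, 57.4 and 72.7 in miR-135b samples, against 64.3, 47.9 and 48.3 in control samples. The groups overlapped through control replicate 1. The log2 fold change was 0.29 with a 95% interval of -0.06 to 0.65 (edgeR adjusted p = 0.17). CDKN2B did not pass in any of the 17 alternatives, where the adjusted p ranged from 0.064 to 0.415. At 37 to 82 raw counts this gene was 1.88 to 5.14 times its sample's background. Its log2 fold change was 0.45 by limma on background-subtracted counts scaled by reference genes, and 0.34 with reference gene scaling alone.

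**Figure D2:**
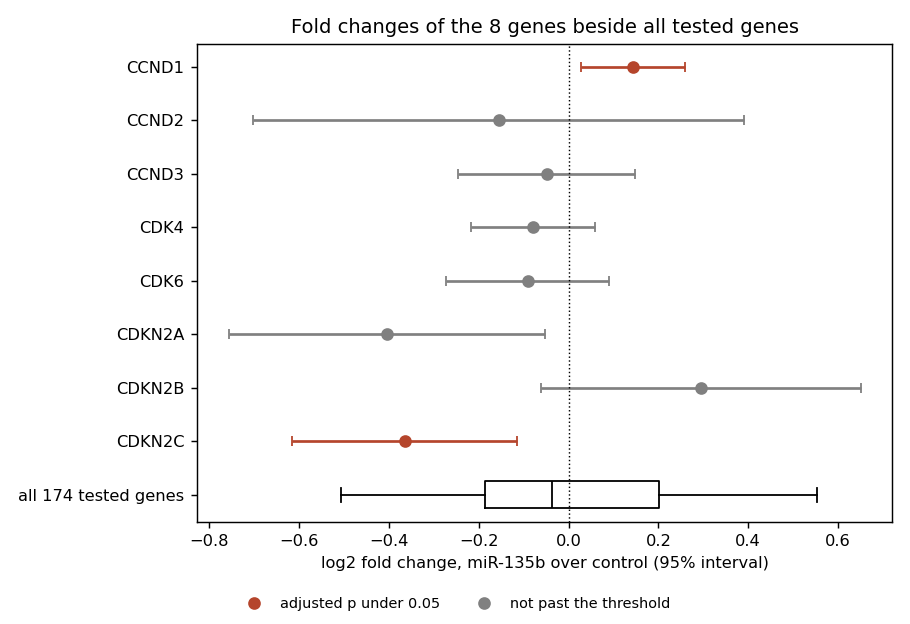
Log2 fold change of miR-135b over control samples for each of the 8 genes with its 95% interval from edgeR, and below them a box for all 174 tested genes (box, quartiles; line, median; whiskers, percentiles 5 and 95). CCND1 (0.14) and CDKN2C (-0.36), in red, had an adjusted p under 0.05, and the widest interval is that of CCND2.

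The count of one gene over another within a sample does not depend on how samples are scaled to each other. Probes differ in efficiency, so the size of such a ratio has no meaning of its own and only its difference between groups was read. The ratio of CCND1 to CDKN2C was 9.65, 9.84 and 10.2 in miR-135b samples, against 7.13, 6.73 and 7.04 in control samples. The groups were far apart relative to the spread within them, and the ratio was 1.42-fold higher in miR-135b samples (log2 difference 0.51). The exact two-sided permutation test gave p = 0.1, the smallest that 3 against 3 samples allow. This pair was chosen with the earlier fold changes of both genes known, so it is no independent evidence of either.

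The ratio of CDKN2B to CDKN2A, chosen after the values were seen, was 1.55, 1.45 and 1.63 in miR-135b samples, against 1.18, 0.829 and 0.841 in control samples. It was 1.64-fold higher in miR-135b samples without overlap (log2 difference 0.72, exact two-sided permutation p = 0.1, again the smallest possible). Over all 28 pairs among the 8 genes, the groups did not overlap for 12 (42.9%), while they did not overlap for 50% of the 15051 pairs of tested genes. Each gene had 7 partners. CDKN2A took part in 5 of the 12 pairs, CCND1 and CDKN2C in 4 each, and CCND3, CDK4 and CDKN2B in 3 each. CDK6 took part in 2 and CCND2, which was at background, in 0. CDK4 over CDK6, which differed by 0.03 on the log2 scale, and CDKN2A over CDKN2C, by -0.05, were among the overlapping pairs.

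**Figure D3:**
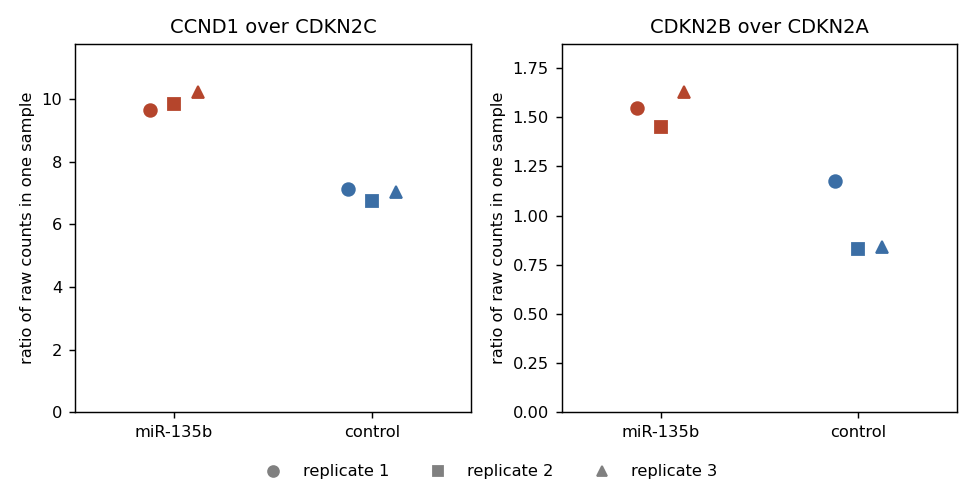
Ratio of raw counts within each sample for CCND1 over CDKN2C (left) and CDKN2B over CDKN2A (right), with miR-135b samples in red left of control samples in blue and marker shape for the replicate; axes start at 0. In both panels all 3 miR-135b samples lie above all 3 control samples.

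Partners of the module at the G1/S boundary moved both ways. Of 8 measured genes of a 22-gene list (cyclin E and A, CDK2, CIP/KIP inhibitors, RB and E2F), 2 rose, 3 fell and 3 did not pass (62.5% called, against 43.1% of all tested genes), with a median log2 fold change of -0.033 against -0.037 over all tested genes. CDKN1A, which encodes the CDK inhibitor p21, rose 1.61-fold (edgeR adjusted p = 5.9e-05) and the transcription factor gene E2F3 rose 1.41-fold (1e-06). E2F1 fell by 0.63 on the log2 scale (edgeR adjusted p = 1.49e-09), CCNE1, the cyclin that follows cyclin D in G1, fell by 0.51 (1.39e-06), and TFDP1, the E2F dimer partner, fell by 0.092 (0.0265). RB1, the main substrate of CDK4 and CDK6, had 1097 normalised counts on average in miR-135b samples and 1075 in control samples (edgeR adjusted p = 0.631), and CDK2 had 286 in miR-135b and 326 in control samples (0.0551). Of 15 measured S-phase genes known as E2F targets, 0 rose and 5 fell (33.3%, against 25.3% of all tested genes lower): E2F1, CCNE1, TYMS, PCNA and BLM. TYMS, PCNA and BLM were 1.13-fold, 1.12-fold and 1.17-fold lower in miR-135b samples, and the other 10 did not pass, CCNA2, RRM1 and TOP2A among them. The calls of TFDP1, BLM and PCNA held in 5, 7 and 9 of 17 alternatives. Leaving out 1 sample ended that of TFDP1 for miR-135b replicates 2 and 3 and control replicates 1 and 2 (edgeR adjusted p 0.0933, 0.104, 0.148 and 0.0743), that of BLM for miR-135b replicates 1 and 2 and control replicates 2 and 3 (0.104, 0.162, 0.0534 and 0.0881), and that of PCNA for miR-135b replicate 2 and control replicates 2 and 3 (0.112, 0.0511 and 0.0868). CDKN1A, E2F1, E2F3 and CCNE1 passed in all 17. TYMS passed in 15. It missed with spike scaling (edgeR adjusted p = 0.686) and by limma on background-subtracted counts scaled by reference genes (0.0731).

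Genes known to act on CCND1 or on the INK4 genes were also on the panel. Of 10 measured activators of CCND1 transcription, 4 rose and 3 fell by edgeR (70% called, against 43.1% of all tested genes), with a median log2 fold change of 0.13 against -0.037 over all tested genes. ETS1 (2.15-fold), the beta-catenin gene CTNNB1 (1.58-fold), STAT3 (1.49-fold) and the AP-1 subunit JUN (1.37-fold) rose. FOSL2, another AP-1 subunit, fell by 0.48 on the log2 scale, MYB by 0.45 and ETS2 by 0.24. Of 8 measured genes known to act on INK4 expression, ETS1 rose, 3 fell and 4 did not pass (50% called, near the 43.1% of all tested genes). The fall was 0.71 on the log2 scale for TGFBR2, a receptor of the signal that induces CDKN2B. For MYC, which represses CDKN2B, it was 0.44, and for ETS2 0.24. ETS1 and ETS2 are both on this list and went opposite ways (log2 fold changes 1.11 and -0.24). The part of either in the CDKN2A values was not tested. BMI1, a Polycomb repressor of CDKN2A, had 729.8 normalised counts on average in miR-135b and 792 in control samples (edgeR adjusted p = 0.0829). The calls of ETS1, CTNNB1, STAT3, JUN, FOSL2, MYB and TGFBR2 held in all 17 alternatives. That of MYC held in 16 and that of ETS2 in 15, with spike scaling ending both (edgeR adjusted p = 0.0624 and 0.423). The call of ETS2 was also lost by limma on background-subtracted counts scaled by reference genes (adjusted p = 0.111).

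MYC, whose product binds the E-box CACGTG, is a known activator of CDK4. RefSeq promoter windows (GRCh38.p14), 250 bases before a start of the gene, were matched for 6 of the 8 genes in 12 windows. CCND1 and CCND2 had no matched window, so no motif result below covers them. In the matched windows 8 motifs were searched on both strands. CACGTG occurred in the only CDK4 window and in 2 of the 3 windows of CDKN2C, against 6.34% of all 35116 windows. The CDK4 window held it 3 times, at 216, 196 and 101 bases before the start, as 0.0797% of windows did with 3 or more. The log2 fold change was -0.44 for MYC and -0.36 for CDKN2C, while CDK4 did not pass the test (-0.08, edgeR adjusted p = 0.351). The part of MYC in the values of these genes was not tested. The 3 windows that hold these letters are shown, and the capitals mark CACGTG. They lie at chr12:57752311-57752560 on the minus strand (CDK4), and at chr1:50960495-50960744 and chr1:50969995-50970244 on the plus strand (CDKN2C).
CDK4: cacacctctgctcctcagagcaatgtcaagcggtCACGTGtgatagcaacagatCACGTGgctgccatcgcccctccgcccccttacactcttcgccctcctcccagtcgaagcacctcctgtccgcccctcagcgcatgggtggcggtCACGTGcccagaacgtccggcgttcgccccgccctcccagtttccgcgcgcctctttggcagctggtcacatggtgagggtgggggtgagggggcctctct
CDKN2C, upstream start: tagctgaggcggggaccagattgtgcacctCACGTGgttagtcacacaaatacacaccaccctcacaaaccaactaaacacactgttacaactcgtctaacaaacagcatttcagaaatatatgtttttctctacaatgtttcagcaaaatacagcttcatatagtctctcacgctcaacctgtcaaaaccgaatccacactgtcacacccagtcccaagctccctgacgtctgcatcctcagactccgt
CDKN2C, downstream start: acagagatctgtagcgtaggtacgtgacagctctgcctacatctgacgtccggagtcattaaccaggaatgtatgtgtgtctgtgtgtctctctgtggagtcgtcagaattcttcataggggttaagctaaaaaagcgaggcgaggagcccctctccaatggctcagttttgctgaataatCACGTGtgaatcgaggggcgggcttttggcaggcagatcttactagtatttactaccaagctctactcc
The GC box GGGCGG was found in 8 of the 12 windows, from all 6 genes, against 42.6% of all windows. The E2F forms TTTCGCGC and TTTGGCGC, the AP-1 site TGANTCA, the CRE TGACGTCA, the ETS site CCGGAAGT and the STAT site TTCNNNGAA were in none of the 12, against 0.439%, 0.55%, 6.57%, 1.65%, 3.42% and 6.57% of all windows. At such shares finding none in 12 windows is not unusual, so it is not read as a property of these genes. None of the printed CACGTG copies overlapped another motif searched. A match is a description of these letters and does not show binding.

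The genes whose pattern over the 6 samples was most like that of CCND1, CDKN2C and CDK4 were found by the root-mean-square difference of log2 normalised counts, each centred on its own mean. The smallest differences lie below the median by construction, so the medians given only show the scale. For CCND1 they were YES1, TFE3 and IFNGR1, at differences of 0.055, 0.056 and 0.063, against a median of 0.18 over all tested genes. For CDKN2C they were CEBPA (0.069), ERCC4 (0.077) and PDGFA (0.080), against a median of 0.22. For CDK4 they were CLTC (0.058), HPRT1 (0.059) and BMI1 (0.066), against a median of 0.17, and CLTC and HPRT1 are usual reference genes.

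**Figure D4:**
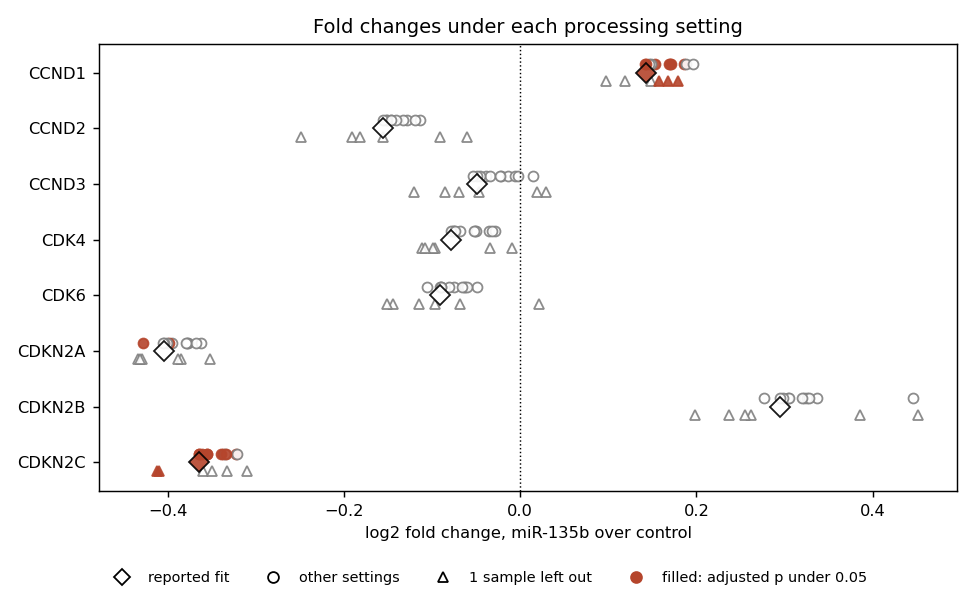
Log2 fold change (miR-135b over control) of the 8 genes in the reported edgeR fit (diamonds), under other settings (circles) and with 1 sample left out (triangles); filled symbols had an adjusted p under 0.05. CCND1, CCND2, CDK4 and the 3 INK4 genes stay on their side of 0 in every fit drawn, while CCND3 and CDK6 cross it.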

How the data were processed

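The authors deposited raw NanoString counts per probe and a table of normalized values on a linear scale, used here as signal. Trizol was used to extract the RNA, at 33 ng per microlitre, per the labels' protocols. For the instrument and its software, versions were not given in the sources used here. Each column of the authors' signal table equalled the raw counts times 1 factor (0.826 to 1.29) within 0.02, with a count of 0 taken as 1.

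Genes above background in at least 3 samples were tested with edgeR 4.0.16 (TMM, glmQLFit, glmQLFTest, model with group alone) in R 4.3.3; tests were two-sided, p-values were adjusted by Benjamini-Hochberg over the 174 tested genes, and the threshold was 0.05. SE is the absolute log2 fold change over the square root of F. The procedure was tested on simulated data, in which as many genes rose as fell. That simulation does not bear on how scaling moves the split of calls. Alternatives used DESeq2 1.42.0 and limma 3.58.1, with a pseudocount of 1 for the authors' values and a floor of 1 after background subtraction. Replicates differed by more than sampling noise (chi-square per degree of freedom at least 1.79). Named were all 8 genes, list genes past the threshold with a few others singled out after their values were seen, and the 3 nearest patterns. The members and lists were chosen with earlier results of these data known. The accessions of all 8 genes matched RefSeq under the same symbol.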

Additional observations from a re-analysis of the deposited data

How the results depend on the processing

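With 1 sample left out the panel had 60 to 76 calls, and with spike scaling it had 27, against 75 as reported. Spike counts were 11.3% of gene counts in miR-135b replicate 3, against 8.18% to 9.89% in the other samples. The CCND1 log2 fold change (0.14) was past the threshold in 10 of 17 alternatives; it was 0.19 with spikes, 0.20 by limma with background subtracted and reference gene scaling together (the combined setting), 0.15 on the authors' values and 0.15 without a filter, all short of the threshold, and 0.098 to 0.18 with 1 sample left out. CDKN2C (-0.36) was past it in 11 of 17; it was -0.34 by the DESeq2 Wald test and -0.32 with spikes, both short of it, and -0.41 to -0.31 with 1 sample left out. CDKN2A (-0.40) gained the call under the combined setting (-0.43) and on the authors' values (-0.40). CCND3 turned to 0.015 under the combined setting, with -0.0061 by reference gene scaling alone, and lay between -0.12 and 0.029 with 1 sample left out (0.029 without miR-135b replicate 1, 0.019 without control replicate 1). CDK6 lay between -0.15 and 0.021. CCND2, CDK4 and CDKN2B kept direction in every alternative that fitted them, and none passed the threshold in any. For CCND2 the DESeq2 Wald test gave no adjusted p, and the stricter filter left it untested. Both log2 count ratios moved by less than the SD pooled over the 2 groups in all 8 alternatives each; the CDKN2B to CDKN2A difference (0.72) reached 0.87 with background subtracted and 0.88 without control replicate 1, shifts that exceed the SD of the miR-135b samples alone (0.084). Those of CDKN2B to CDKN2A were added after the data were seen. For the lost and gained calls and the turned signs the cause was not tested. The deviations of samples with the same number correlated at 0.041, -0.15 and 0.11 over 174 genes. Those of samples with different numbers correlated at -0.28 to 0.31. With 3 samples per group these values cannot settle whether samples were paired by number. With the replicate block 80 genes passed, and CCND1 (0.14, edgeR adjusted p = 0.0203) and CDKN2C (-0.36, 0.012) kept their calls. Low counts limit CCND2 most, with a counting error of 24.3% per miR-135b and 22.9% per control sample.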
